A study of Mus musculus with 40 samples.

Results

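The Runx1 locus was taken as the gene body of Runx1 on mouse chromosome 16, chr16:92601466-92826074 in mm10, with 25 kb on each side. Every deposited reporter fragment whose centre lay in this window was a member, and overlapping fragments were merged into regions. There were 186 fragments counted library by library, of which 147 were different, and they formed 32 regions. The whole series held 458486 fragments, 354627 of them different, in 75060 regions.

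The screen measured which pieces of open chromatin could drive a reporter in mouse HM-1 embryonic stem (ES) cells and in the blood-forming cells made from them in serum culture. Fragments cut by the Tn5 transposase were cloned before an Hsp68 minimal promoter and a Venus-YFP gene, and each construct was placed at the Hprt locus, so all samples carried the inserts away from their own chromosome. Cells were collected as undifferentiated ES cells, FLK1+ hemangioblast-like cells (HB), KIT+ TIE2+ CD41- hemogenic endothelium 1 (HE1), KIT+ TIE2+ CD41+ hemogenic endothelium 2 (HE2) and KIT+ TIE2- CD41+ hematopoietic progenitors (HP). Each of the 5 stages was sorted into 4 YFP gates (Negative, Low, Medium and High) in 2 replicates, which gave 40 libraries. One stage of one replicate is called a sort here. Fragments of its Negative gate are called negative, and fragments of its Low, Medium or High gate are called positive and counted once per sort.

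The libraries held 654 to 51146 fragments, and 5 of the 40 libraries had no fragment at the locus. Each list gave a fragment once, so the values are numbers of different fragments and not read counts. The data hold no transcript levels, so the stage labels could not be set against marker genes. Some lists overlapped heavily over the whole genome. In replicate 1, 69.8% of the smaller of the HE1 Negative and Medium lists was also in the other, and in replicate 2 the value for ES Medium with HE1 Low was 65.5%. At the Runx1 locus these pairs shared 4 and 3 fragments.

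Runx1 encodes the DNA-binding subunit of a core-binding factor and is needed for hemogenic endothelium to give rise to blood cells. Its transcription starts from a distal promoter, P1, and a proximal promoter, P2, and enhancers in the long intron between them are known to act in blood progenitors. The gene lies on the minus strand, so distances below are counted from the P1 start at base 92826074, with positive values running into the gene. P2 started 128745 bp downstream of P1. A region is named by the distance of its middle from P1.

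The sequences below are those of the 6 regions with most positive fragments, with the region nearest to 23 kb downstream of P1 and the region at +24.3 kb. The study follows elements at +23 kb and +3.7 kb one by one, and the +24.3 kb region was added because it held 8 fragments where the region nearest to 23 kb held 1. Each is 300 bases of the plus strand of GRCm38 (mm10) round the base covered by most fragments. Capitals mark matches, on either strand, to the letters taken for each factor family, which were TGTGGT for RUNX, GGAATG for TEAD, TGANTCA for AP-1, AGGAAGT for ETS, AGATAA for the GATA family, CAGCTG or CAGATG for the E-box, ACAATG for SOX, TGGGAA for RBPJ and TTGCNNAA for CEBP. A match is a run of letters and was not tested as a binding site.
-8.4 kb, chr16:92834329-92834628: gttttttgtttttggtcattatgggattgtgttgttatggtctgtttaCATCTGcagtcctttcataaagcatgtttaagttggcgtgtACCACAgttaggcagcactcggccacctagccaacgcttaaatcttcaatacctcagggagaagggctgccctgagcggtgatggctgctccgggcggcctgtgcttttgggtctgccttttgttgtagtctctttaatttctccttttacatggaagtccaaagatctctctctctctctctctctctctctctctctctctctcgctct
+3.7 kb, chr16:92822165-92822464: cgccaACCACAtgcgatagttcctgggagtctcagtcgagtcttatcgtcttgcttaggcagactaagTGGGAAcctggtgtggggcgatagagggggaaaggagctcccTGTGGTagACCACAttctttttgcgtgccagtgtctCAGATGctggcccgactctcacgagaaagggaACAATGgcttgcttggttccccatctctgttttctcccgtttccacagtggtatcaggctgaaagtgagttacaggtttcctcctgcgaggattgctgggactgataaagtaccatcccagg
+7.0 kb, chr16:92818894-92819193: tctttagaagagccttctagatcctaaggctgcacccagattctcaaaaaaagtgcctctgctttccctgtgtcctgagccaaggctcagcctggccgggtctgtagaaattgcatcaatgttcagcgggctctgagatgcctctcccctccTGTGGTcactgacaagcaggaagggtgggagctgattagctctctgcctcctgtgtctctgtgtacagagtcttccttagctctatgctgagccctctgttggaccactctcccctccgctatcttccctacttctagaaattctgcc
+22.2 kb, chr16:92803712-92804011: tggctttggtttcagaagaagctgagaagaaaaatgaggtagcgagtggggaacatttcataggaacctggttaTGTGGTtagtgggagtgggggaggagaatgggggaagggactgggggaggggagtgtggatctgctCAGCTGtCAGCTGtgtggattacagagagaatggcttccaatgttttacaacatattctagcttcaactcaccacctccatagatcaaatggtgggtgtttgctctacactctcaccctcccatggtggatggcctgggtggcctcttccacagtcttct
+24.3 kb, chr16:92801619-92801918: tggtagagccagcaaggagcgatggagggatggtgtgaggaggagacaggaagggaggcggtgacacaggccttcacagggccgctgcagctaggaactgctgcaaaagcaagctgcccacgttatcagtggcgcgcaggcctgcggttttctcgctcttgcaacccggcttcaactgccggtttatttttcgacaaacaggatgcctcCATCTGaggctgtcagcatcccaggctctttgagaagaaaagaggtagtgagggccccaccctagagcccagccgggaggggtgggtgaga
+110.3 kb, chr16:92715547-92715846: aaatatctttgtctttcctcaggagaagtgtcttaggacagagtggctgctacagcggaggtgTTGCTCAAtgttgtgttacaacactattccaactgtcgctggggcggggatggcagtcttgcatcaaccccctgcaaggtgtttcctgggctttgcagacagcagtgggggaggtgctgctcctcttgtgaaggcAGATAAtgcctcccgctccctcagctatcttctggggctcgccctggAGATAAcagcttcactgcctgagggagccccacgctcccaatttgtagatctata
+205.1 kb, chr16:92620720-92621019: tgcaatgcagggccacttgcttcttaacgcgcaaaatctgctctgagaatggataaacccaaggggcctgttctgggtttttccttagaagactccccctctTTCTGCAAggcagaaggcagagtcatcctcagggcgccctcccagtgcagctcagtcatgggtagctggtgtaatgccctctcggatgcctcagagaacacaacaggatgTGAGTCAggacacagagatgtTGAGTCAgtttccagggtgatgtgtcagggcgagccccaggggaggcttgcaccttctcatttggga
+214.8 kb, chr16:92611149-92611448: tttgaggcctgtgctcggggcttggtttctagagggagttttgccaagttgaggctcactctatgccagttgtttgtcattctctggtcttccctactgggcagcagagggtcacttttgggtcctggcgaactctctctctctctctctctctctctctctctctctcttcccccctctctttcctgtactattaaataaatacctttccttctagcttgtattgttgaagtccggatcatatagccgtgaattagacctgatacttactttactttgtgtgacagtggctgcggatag

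The 32 regions were spread over the whole gene and its upstream flank. There were 5 regions upstream of P1, 13 between P1 and P2, and 14 from P2 to the end of the gene, and none lay in the downstream flank. They held 25, 98 and 63 fragments. The outermost region inside the window lay 24.8 kb upstream of P1 with 1 fragment, and the next one outside lay 31.0 kb upstream with 7. At the other end the nearest region outside lay 28.0 kb past the gene and had 3 fragments. Of the 32 regions, 26 had at least 1 positive fragment (81.2%), against 84.0% of all regions of the series. A single fragment made up 17 of the 32 regions (53.1%), against 55.0% in the series, and 9 regions had at least 5 fragments.

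**Figure D1:**
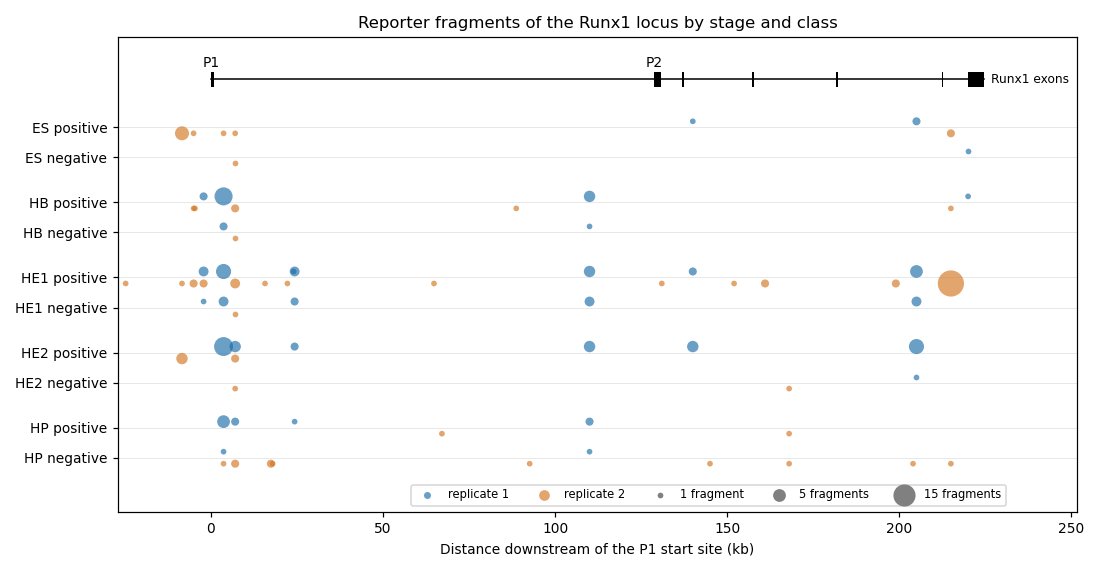
Fragments of the Runx1 locus by distance from the P1 start (x axis, kb) for positive and negative fragments of each stage (rows), with circle area in proportion to the number of fragments summed over libraries. Blue is replicate 1 and orange replicate 2, and black boxes are Runx1 exons; the regions at +3.7, +110.3 and +205.1 kb recur in blue over several stages, and the largest orange circle is the 19 fragments of HE1 Low at +214.8 kb.

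The replicates drew on mostly different regions. Fragments came from replicate 1 only in 8 regions, from replicate 2 only in 21 and from both in 3. In the series the shares were 33.0%, 57.7% and 9.28%, against 25.0%, 65.6% and 9.38% at the locus. Positive fragments were found in both replicates in 3 of the 26 regions with any (11.5%), and in 8.14% of such regions of the series. These were the regions at -2.2, +3.7 and +7.0 kb. Stages were pooled in this count, and at +3.7 kb no single stage had positive fragments in both replicates. Replicate 1 gave 86 of the 146 positive fragments of the locus (58.9%), while it gave 81.0% of the positive fragments of the series. Of the 60 from replicate 2, the regions at -8.4 and +214.8 kb gave 11 and 21, and the fragments of each shared ends.

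The region with most fragments lay at +3.7 kb, in intron 2 of the longest curated Runx1 transcript (chr16:92822070-92822770). It held 41 fragments in 16 libraries, 35 of them different, with 34 positive and 7 negative at the level of sorts. Of 63070 regions with a positive fragment in the series, 2.53% had as many or more. By library of replicate 1, it had 2 HB Negative, 8 HB Medium and 2 HB High fragments. In HE1 it had 3 Negative, 2 Low, 2 Medium and 3 High fragments, and in HE2 3 Low, 4 Medium and 4 High. In HP it had 1 Negative, 1 Low, 3 Medium and 1 High fragment. No replicate 1 library of ES cells held it, and replicate 2 gave 1 ES High and 1 HP Negative fragment. The region was thus found in sorted cells of every stage, and 33 of its 34 positive fragments were from replicate 1.

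Scaled to depth, the +3.7 kb region made up 2.57 per 10000 positive fragments of the HB sort of replicate 1 (Wilson 95% interval 1.39 to 4.73, from 10 fragments). The same share was 0.687 in HE1 (0.333 to 1.42), 1.61 in HE2 (0.898 to 2.88) and 1.26 in HP (0.538 to 2.95). In ES cells it was 0 of 27717, with an upper Wilson bound of 1.39 per 10000, and by the limit of 3 counts it allows up to 1.08. The HB value was the highest and the HE1 value the lowest of the 4 sorts of replicate 1 with a fragment, and their intervals overlapped. The lower bound of HB and the upper bound of ES were both 1.39, and each value rests on 1 sort. These intervals cover counting error only. They treat fragments as independent, and the spread between sorts and the overlap of lists are not in them.

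In the printed sequence of the +3.7 kb region, the RUNX letters occurred 3 times, with a pair of matches in opposite orientation at bases 111 and 119 of the window. The matches at 111 and 119 were covered by 19 and 18 positive fragments, and by 2 negative ones each. The match at base 6 was covered by 6 positive fragments. Windows with at least 3 RUNX matches made up 0.438% of the windows of the series, and the other one at the locus was +17.4 kb, which held 2 negative fragments only. An E-box, a SOX and an RBPJ match lay in the same +3.7 kb window. It held no match to the TEAD or AP-1 letters. The study reports that several Runx1 enhancers, this one included, are bound by both of these factors. Other forms of the motifs were not searched, so sites of both may be present.

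The region at +24.3 kb (chr16:92801605-92801955, intron 2) held 8 fragments, all different and all from replicate 1. Libraries of HE1 gave 2 Negative, 1 Low and 2 High fragments, those of HE2 gave 1 Low and 1 High, and HP High gave 1. No fragment came from ES or HB cells. In the sorts of replicate 1, the share was 0.294 per 10000 positive fragments in HE1, 0.292 in HE2 and 0.252 in HP. In HB, 0 of 38953 positive fragments allows up to 0.770 per 10000, and in ES cells the limit was 1.08. Both limits lie above the values of the later stages, so a difference between stages was not detectable at this depth. By the study's methods, fragments were kept only in open chromatin of the matching stage. Whether the deposited lists carry this filter is not stated. The limits given for a stage without fragments, here and at other regions, assume that it was not applied. Of the exact letters searched, the window held only 1 E-box match, covered by 3 positive and 2 negative fragments. Other forms of the motifs were not searched, so sites of the other families may be present. The study mutated TEAD and RUNX1 sites in its +23 kb element, and whether this region is that element was not tested. A neighbouring region at +24.0 kb held 1 HE1 High fragment, and the one at +22.2 kb held 1 HE1 Low fragment of replicate 2.

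The region at +110.3 kb (chr16:92715381-92716149) lay in the same intron and held 19 fragments of replicate 1 in 12 libraries. HB gave 1 Negative, 2 Low and 2 High fragments, HE1 3 Negative, 3 Medium and 1 High, HE2 1 Low, 1 Medium and 2 High, and HP 1 Negative, 1 Medium and 1 High. There were 14 positive and 5 negative fragments at the level of sorts, and none from ES cells. In ES of replicate 1, 0 of 27717 positive fragments allows up to 1.08 per 10000. That limit lies above the highest share of the region, 1.03 in HB, so a difference from ES was not detectable. Its window held 2 GATA matches, as did 2.01% of the windows of the series. The first was covered by 10 positive and 2 negative fragments and the second by 2 positive ones.

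A region at +205.1 kb in intron 6 (chr16:92620511-92621465) held 18 fragments, also of replicate 1 only. ES High gave 2, HE1 Negative 3, HE1 Medium 5, HE2 Negative 1, HE2 Low 4, HE2 Medium 1 and HE2 High 2. No HB or HP library held it, which allows up to 0.770 and 0.756 per 10000 positive fragments. In HE2 the share was 1.02 (0.496 to 2.11) and in HE1 0.490 (0.210 to 1.15), again without a separation beyond the intervals. The AP-1 letters occurred 2 times in its window, and 1.38% of the windows of the series held as many. The pair of AP-1 matches was covered by 7 and 6 positive fragments and by 2 negative ones each.

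In HE1 of replicate 1, counts of Medium and Negative fragments in these regions are not independent, since that pair of libraries shared most of its fragments. The smaller region at +140.0 kb, in intron 4, held 6 fragments, all positive and of replicate 1. They were 1 ES High, 1 HE1 High, 1 HE1 Medium, 2 HE2 High and 1 HE2 Low. Its window had TEAD, GATA and RBPJ matches. By the exact letters searched, the +140.0 kb region was the only one of the 9 described here with a TEAD match. These letters were found in 18.7% of the windows of the series. Other forms of the motif were not searched, so TEAD sites may be present in the rest.

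**Figure D2:**
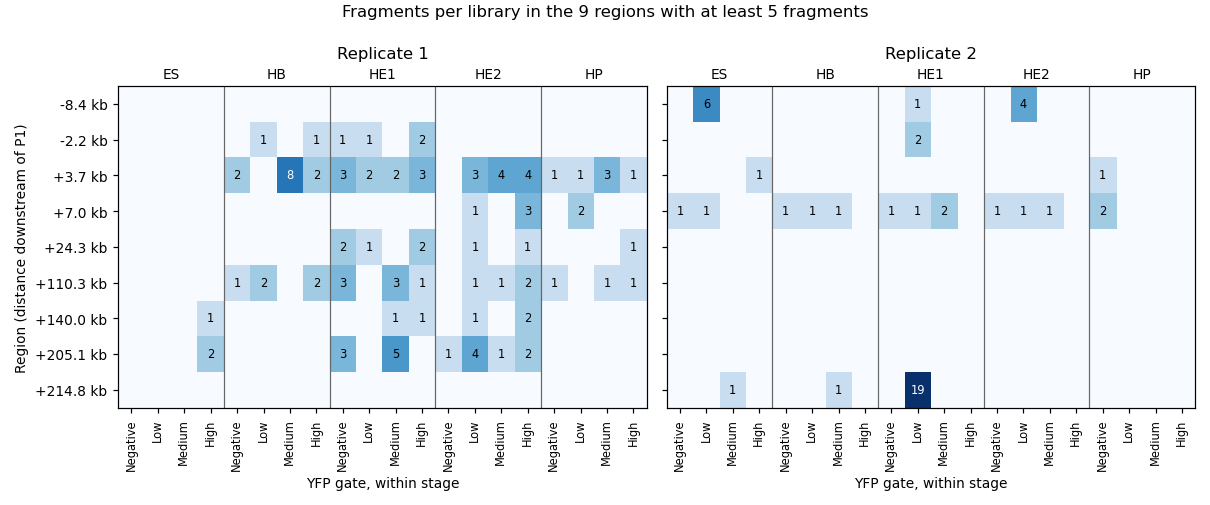
Number of fragments (figures in the cells, darker blue for more) in each library for the 9 regions with at least 5 fragments (rows, named by distance from P1), by stage and YFP gate in replicate 1 (left) and replicate 2 (right). The regions at +3.7, +24.3, +110.3, +140.0 and +205.1 kb are filled mainly or only in replicate 1, and those at -8.4 and +214.8 kb only in replicate 2.

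Near P1, the region at +7.0 kb (intron 2) held 20 fragments but only 9 different ones. A single 202 bp fragment, chr16:92818868-92819069, was found in 12 libraries of replicate 2, which covered all 5 stages and were 5 Negative and 7 positive libraries. Other fragments of the region came from HE2 High (3), HE2 Low (1) and HP Low (2) of replicate 1, and from replicate 2 (1 in HE1 Medium and 1 in HP Negative). The recurring fragment was thus in the Negative gate at every stage. Its sequence held the 1 RUNX match of the window.

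The region at -2.2 kb, between genes upstream of P1, held 8 fragments. In replicate 1, HB Low, HB High, HE1 Negative and HE1 Low gave 1 each and HE1 High gave 2. HE1 Low of replicate 2 gave 2 more. It was positive in both replicates in HE1 and in replicate 1 alone in HB. The 2 fragments of replicate 2 were nearly identical, chr16:92828083-92828195 and chr16:92828083-92828196. The second was also found in HE1 High and in HE1 Negative of replicate 1.

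The regions at -8.4 and +214.8 kb were high in single libraries of replicate 2. At -8.4 kb there were 11 fragments, 6 in ES Low, 4 in HE2 Low and 1 in HE1 Low. At +214.8 kb (intron 7) there were 21, with 19 in HE1 Low, 1 in ES Medium and 1 in HB Medium. None came from a Negative gate. These were the only windows of the locus with a run of CT of at least 20 bases, and 0.806% of the windows of the series had such a run (CT or AG).

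The fragments within each of these regions shared ends. At -8.4 kb all 7 different fragments had the same start and 7 different ends. At +214.8 kb all 19 different fragments kept at least 1 end of the 372 bp fragment chr16:92611115-92611486. The run of 38 bases, seen in the printed sequence as the repeated ct, was spanned by 13 of the 19, and 6 had an end inside it. With fragments whose ends both lay within 5 bp counted once, 4 were left at +214.8 kb and 2 at -8.4 kb. What made the ends differ was not tested.

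**Figure D3:**
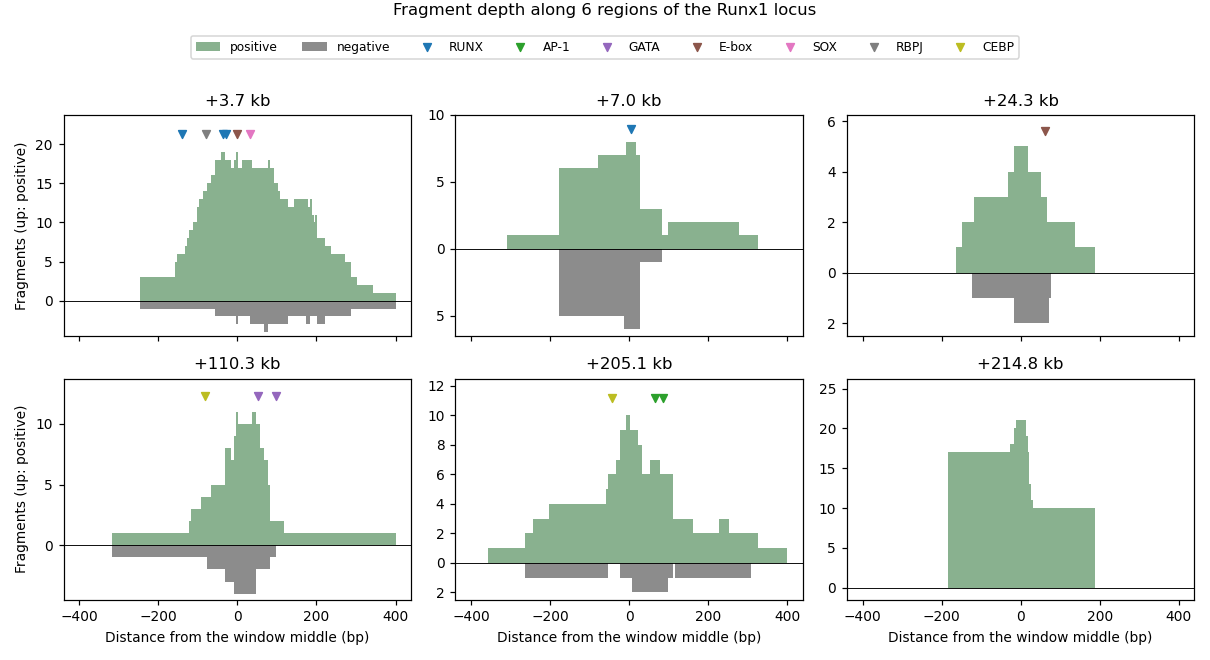
Number of fragments over each base, each counted once per sort and class and summed over sorts (y axis; positive above 0 in green, negative below 0 in grey) against distance from the middle of the 300 base window (x axis, bp) in 6 regions, with triangles at motif matches. At +3.7 kb up to 19 positive fragments overlapped with many different ends, and at +214.8 kb the depth has the flat steps of fragments with shared ends.

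The other 23 regions held 34 fragments, with 1 to 4 each. Of these, 19 were found in replicate 2 only and 4 in replicate 1 only. Single libraries accounted for many of them, as 7 regions of the locus were found only in HE1 Low of replicate 2 and 5 only in HP Negative of replicate 2. These libraries were the deepest of replicate 2, with 31915 and 14951 fragments. The matching count over the series was not made, and the part of depth was not tested. HE1 Low of replicate 2 held 34 fragments of the locus in 13 regions, more than any other library. The largest of these 23 were at -5.1 and +215.5 kb with 4 fragments each and at +167.6 kb with 3. The +220.3 kb region lay in exon 8 (1 HB Medium fragment of replicate 1) and the middles of the others lay in introns or upstream of P1. The regions at +219.9 and +130.6 kb reached into an exon.

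By stage, 13 of the 26 regions with positive fragments were positive only in HE1, HE2 or HP (50.0%), 3 only in ES or HB (11.5%) and 10 in both (38.5%). In the series the shares were 51.1%, 23.2% and 25.7%. The later 3 stages gave 74.3% of all positive fragments of the series, and the part of depth in these shares was not tested.

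The first comparison asked whether the locus made up more of the positive than of the negative fragments. Its share was 6.0 ± 4.63 per 10000 positive fragments and 3.61 ± 2.18 per 10000 negative fragments (SD over 10 sorts). In ES the positive and negative shares were 1.08 and 0.966 in replicate 1, and 12.2 and 3.55 in replicate 2. In HB they were 4.11 and 3.56, then 4.10 and 3.27. In HE1 they were 2.45 and 2.90, then 10.6 and 3.61. The largest differences so far were those of replicate 2, in ES and HE1. HE2 had 4.68 and 1.19, then 14.4 and 7.33, and HP had 2.52 and 2.36, then 3.84 and 7.36. The positive share was above the negative one in 8 of 10 sorts, all but HE1 of replicate 1 and HP of replicate 2, and the ranges overlapped. The mean difference of 2.39 was not larger than the spread (exact two-sided permutation within stages, p = 0.193, n = 10 sorts). It was 0.0948 for the gene body alone, 0.223 with each region counted once and 0.440 with fragments within 5 bp collapsed. Within replicates it was 0.772 and 4.01. Replicate 2 was higher in both classes, with means of 9.03 and 5.02 against 2.97 and 2.20 in replicate 1.

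The second comparison asked whether the locus gained positive fragments as blood formed. The share was 6.42 ± 4.94 in the 6 sorts of HE1, HE2 and HP and 5.37 ± 4.77 in the 4 sorts of ES and HB. The difference of 1.05 per 10000 was within the spread (exact two-sided permutation, p = 0.70). Within replicate 1 the means were 3.22 and 2.59, and within replicate 2 they were 9.62 and 8.15. The direction turned without the ES sort of replicate 1 (-0.379) and without the HE2 sort of replicate 2 (-0.546). Counting fragments within 5 bp of each other once left -0.0379.

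The third comparison set High against Low YFP. The locus made up 2.25 ± 2.42 per 10000 fragments of the High gate and 9.75 ± 11.9 of the Low gate (SD, n = 10 libraries each). The High share was below the Low share in 8 of 10 sorts, and the mean difference was -7.50 (exact two-sided permutation within stages, p = 0.0288). Exchanging the labels within each sort, which keeps the replicates paired, gave an exact p = 0.0527. Within replicate 1 the difference was 0.352, with High above Low in 2 of 5 sorts. Within replicate 2 it was -15.4, with High below Low in 5 of 5 sorts, and p = 0.0625 was the smallest that an exact test of 5 sorts can give.

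The difference between High and Low rested on few fragments. Replicate 2 had 2 locus fragments in all its High libraries, 1 in ES and 1 in HB. Its HE1, HE2 and HP High libraries held none, and their depth of 1413, 654 and 1796 fragments allows up to 21.2, 45.9 and 16.7 per 10000. The highest Low values were 39.7 in ES and 20.0 in HE2 of replicate 2, and 6 of 7 and 4 of 5 of those fragments lay in the -8.4 kb region with shared ends. With the gene body alone, which leaves that region out, the difference was -1.84 (p = 0.151 by the exact permutation). It kept its call with fragments within 5 bp collapsed (-4.17, exact p = 0.0306) and with each region counted once (-3.28, exact p = 0.0352). Among the sorts of replicate 2, the call was lost without ES (-3.46, exact p = 0.106), HE1 (-6.44, exact p = 0.0733) or HE2 (-5.08, exact p = 0.201). It was kept without HB (-7.18, exact p = 0.0471) or HP (-7.48, exact p = 0.0455). Without the ES sort of replicate 1 it was -11.5.

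**Figure D4:**
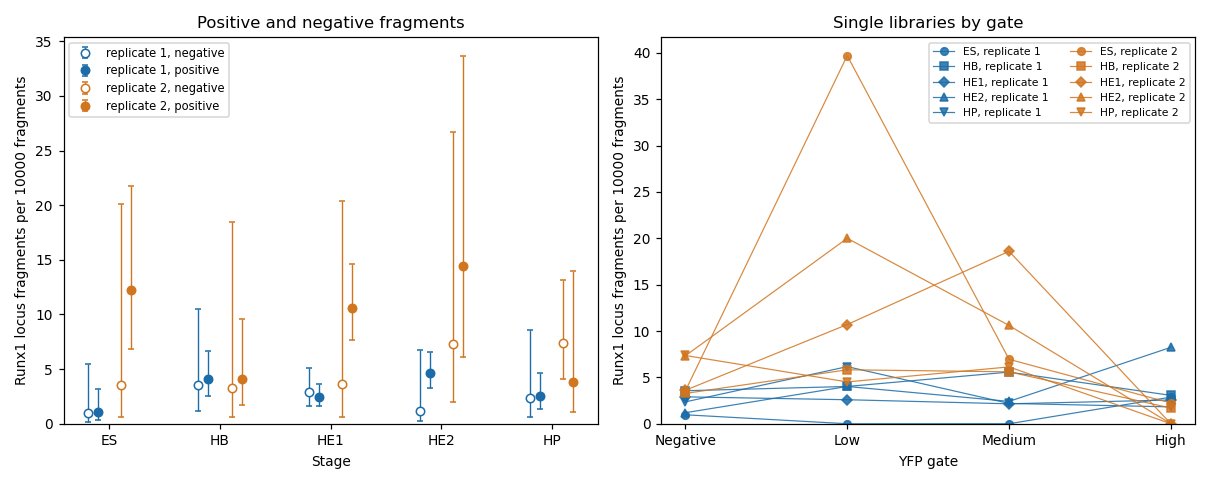
Fragments of the Runx1 locus per 10000 fragments (y axis) in the positive and negative fragments of each sort (left; bars are Wilson 95% intervals) and in each library by YFP gate (right; lines join the gates of a sort). The intervals of open and filled symbols overlap in every sort, and the highest values are Low libraries of replicate 2, led by 39.7 in ES.

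Region by region, positive and negative fragments were compared by a Cochran-Mantel-Haenszel test over the 10 sorts on the 5530 regions of the series with at least 20 fragments, counted once per sort and class, adjusted by the Benjamini-Hochberg method. Of these, 0.181% were called with fewer positive fragments than the depth of the gates gives, and 0.0% with more, while 191 had an unadjusted p below 0.05. At the locus the regions at +3.7 and +214.8 kb passed this filter, while +7.0 kb had 17 fragments counted in this way. Neither of those tested was called. At +3.7 kb there were 34 positive fragments where 32.7 were expected from depth (ratio 1.04, adjusted p = 1.00 by the Cochran-Mantel-Haenszel test over all regions). At +214.8 kb there were 21 where 19.2 were expected (ratio 1.10, adjusted p = 1.00). Over the series 76.8% of the fragments of sorts were positive, which leaves little room for a higher ratio. None at +214.8 kb was negative, so its ratio could not be higher, and its unadjusted p was 0.295 by the same test. An excess there could not be called. The test also treats fragments as independent. With fragments within 5 bp collapsed, 0 of 5210 regions were called, and +214.8 kb no longer passed the filter.

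Over whole gene windows, each a gene with 25 kb on each side, limma called no window in either contrast. From ES and HB to HE1, HE2 and HP, 0.0% of 7954 windows were called higher and 0.0% lower, with 70 at an unadjusted p below 0.05. A replicate block in this fit gave 433 windows at an unadjusted limma p below 0.05, and again none was called. The Runx1 window changed by 0.38 ± 0.64 (log2 of the share per 10000 plus 0.1, with its SE, limma adjusted p = 1.00). For positive against negative fragments, 0.0% of 9259 windows were called in either direction, with 511 at an unadjusted p below 0.05. Runx1 was at 0.57 ± 0.65 (limma adjusted p = 0.938), where the median over all windows was 0.58. With the replicate number as a block, 2 windows of the 9259 were called, and Runx1 was not among them.

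The Runx1 window was denser than most. It held 0.532 positive fragments per kb, more than 83.8% of 26178 gene windows, where the median was 0.0710. By regions with positive fragments it had 0.0947 per kb, above 88.9% of the windows.

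Among the genes set beside Runx1, none of those tested was called. From ES and HB to HE1, HE2 and HP, 11 of the 15 listed genes had enough positive fragments to be tested. The windows of Runx2, a sister factor, and of Cbfb, the partner that stabilises RUNX proteins on DNA, changed by 0.77 ± 1.33 and -0.06 ± 1.49. Their mean shares in HE1, HE2 and HP were 1.55 ± 0.946 and 0.962 ± 1.04 per 10000. In ES and HB they were 1.65 ± 1.98 and 0.937 ± 0.683, so the mean shares of both went the other way from the log2 changes. Fli1, an ETS factor of endothelium and blood, was at 1.96 ± 1.29, with 3.02 ± 3.34 per 10000 in HE1, HE2 and HP and 1.58 ± 1.98 in ES and HB. Itga2b, which encodes the CD41 used in the sort, was at -1.36 ± 0.83, with 3.67 ± 2.76 and 6.0 ± 3.11 per 10000. For all these the adjusted p by limma was 1.00. The other 7 tested genes lay between -1.17 ± 1.31 (Lyl1, a bHLH factor related to TAL1) and 1.26 ± 1.51 (Myb, a factor of blood progenitors). For positive against negative fragments 13 of the 15 genes were tested and none was called, with adjusted p-values by limma of 0.888 for Csf1r, a growth factor receptor of macrophages, and above for the rest.

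The motif letters were counted in the 32 windows of the locus and in all windows of the series. A RUNX match occurred in 8 of 32 windows (25.0%), against 23.5% in the series, an ETS match in 3 (9.38% against 12.5%), a GATA match in 3 (9.38% against 16.5%) and a TEAD match in 3 (9.38% against 18.7%). E-box letters occurred in 10 (31.2% against 39.4%), RBPJ in 9 (28.1% against 28.4%), and AP-1, SOX and CEBP in 4 each (12.5% against 13.3%, 16.1% and 11.2%). In percentage points, the shares of TEAD, E-box and GATA matches were the furthest below those of the series, and no test of these differences was made. The windows had a GC content of 52.7 ± 6.35%, against 49.4 ± 6.75% in the series (SD over windows).

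Of the 147 different fragments, 128 were found in 1 library (87.1%, against 81.0% in the series), 19 in more and 2 in both replicates (1.36%, against 0.956%). There were 9 found in both negative and positive libraries (6.12%, against 12.1%). In 11 of 170 pairs of sort and fragment (6.47%, against 9.20%) the same fragment was negative and positive in the same sort.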

How the data were processed

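The 40 libraries came from 20 groups of stage and YFP gate with 2 replicates, taken from the sample titles. Per the submitters' notes and the study's methods, the authors used Trim Galore for trimming and bowtie2 for alignment to mm10, filtered proper pairs with SAMtools, removed duplicates and used bedtools and HOMER, with a promoter limit of 1500 bp. For the reporter libraries, tool versions are not given in the sources used here. The study's methods set a mapping quality limit and removed fragments matching a background library from untransfected cells. They also kept only fragments in open chromatin of the matching stage, and split promoter from distal ones. Which of these steps shaped the lists used here is unknown. The region of the locus closest to a transcription start, +130.6 kb, had its middle 1898 bp away. Whether filtering removed fragments near P1 and P2, or of some stages, was not tested. The deposited values are chromosome, start and end of each different fragment (66 to 599 bp), with no read count or score, so depth is the number of fragments (654 to 51146 per library) and other depth is unknown.

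Overlapping fragments of all libraries were merged into regions, and shares were given per 10000 fragments of a library or sort. Genes, exons and sequences came from RefSeq on GRCm38, the assembly of mm10, with curated transcripts. Shares were compared by exact permutation (Python 3.11.15, scipy 1.17.1), regions with at least 20 fragments by a Cochran-Mantel-Haenszel test (continuity corrected), and gene windows with at least 20 fragments by limma 3.58.1 in R 4.3.3 on log2(share + 0.1), with stage as a factor. Calls were made at an adjusted p of 0.05. The tests per region and per gene window were run on simulated data. For regions, only a loss of positive fragments was simulated, with the class of each fragment drawn independently. An excess of positive fragments in a region and shared fragment ends were not simulated. Regions with at least 5 fragments were described one by one. The share comparisons and limma fits did not use the replicate number. Same-numbered samples deviated together, with correlations of 0.175 to 0.527 over 9259 windows in all 45 pairs of stage and class, so values with the replicate as a block are given where they change a call. Nothing in the labels says that replicates were separate cultures, so p-values measure only the spread between these samples. The members, motifs and gene lists were chosen with earlier results of these data known. Alternatives were other windows, merging rules, filters, pseudocounts and left-out sorts, and those that leave out HE1 Low of replicate 2 or HE1 Medium of replicate 1 were added after seeing the data.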

Additional observations from a re-analysis of the deposited data

How the results depend on the processing

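The mean of positive minus negative shares kept its direction in all 19 alternatives, from 0.0948 for the gene body alone and 0.223 with each region counted once to 4.01 without replicate 1, and none passed 0.05. Leaving out sorts, replicates or the 2 named libraries gave 0.772 to 4.01. The stage difference reversed to -0.0379 with fragments within 5 bp collapsed, and ranged from -0.546 to 3.33 with sorts, replicates or libraries left out. The log2 change of the Runx1 window between stages ranged from -0.47, without the ES sort of replicate 1, to 1.22 with sorts or libraries left out. The High minus Low difference lost its call for the gene body alone (-1.84) and with the replicate block (-7.50, exact permutation p = 0.0527), and ranged from -15.4 to 0.352 with sorts or replicates left out, the last being replicate 1 alone. The replicate block left the difference of positive and negative shares at p = 0.0820 and that of stages at p = 0.620 (exact permutation), and it called 2 gene windows in place of 0 for positive against negative fragments. The number of regions called was 23 with no replicate block (stages as strata), 17 with regions of at least 10 fragments, 0 after collapsing fragments within 5 bp, and 5 to 17 with a sort or replicate left out. It was 6 without the HB, 5 without the HE1 and 17 without the HP sort of replicate 2. The regions at +3.7 and +214.8 kb were called in none of the alternatives in which they had enough fragments to be tested. The +3.7 kb region fell out without replicate 1, and the +214.8 kb region after the collapse, without replicate 2 and without its HE1 sort. The count of regions positive in both replicates was 2 to 3. The cause of these changes was not tested. With each stage as a term, the stage contrast of gene windows could not be fitted without a whole replicate, as no residual degrees of freedom were left. Depth limits most statements: 17 of the 32 regions rest on 1 fragment.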
